A study of Caenorhabditis elegans with 4 samples.

Results

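The gene set described here comprised 186 protein-coding genes of Caenorhabditis elegans. Their deposited ratios lay above 0.1 on both aged adult arrays and below -0.1 on both young adult arrays, on the log10 scale. A value of 0.1 on that scale is 0.33 on the log2 scale and a 1.26-fold ratio. The 186 were found among 2147 coding genes with a ratio on all 4 arrays, themselves part of 6927 coding genes with a named probe. Another 6 genes met the same limits but were left out by symbol: algn-12, eif-2Bdelta, gtf-2E1, metl-9, pigm-1 and pigt-1. The members were chosen by the measured ratios of all 4 arrays, so these ratios are given as a description and no test was made on them. Members with a known role included the germ cell genome protector gcna-1, the SMC-5/6 subunits nse-1 and nse-4, the small RNA factors slfl-3 and hrde-2, the spliceosome genes sftb-1 and snrp-40.2, and the ubiquitin ligases ari-1.3 and ari-2. Membership is a sign pattern and names no cell type or pathway.

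The RNA came from dissected gonads, 250 for a sample, of aged adult cde-1 tm1021 mutants and aged adult wildtype N2 worms, and of young adult cde-1 tm1021 mutants and young adult wildtype N2 worms. Mutant and wildtype cDNA of a stage were hybridised together on 2-colour Agilent arrays, once with the mutant in Cy5 and once with it in Cy3. Each stage and genotype had 1 RNA sample. The 2 arrays of a stage therefore repeat the labelling and not the biology, and an age difference cannot be told apart from a difference between single RNA samples. The labels give no age in days.

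cde-1 encodes a terminal uridylyltransferase, an enzyme that adds uridines to the ends of RNAs. In the worm germline it acts on the small RNAs bound by the Argonaute CSR-1, which targets genes expressed in germ cells. The gonad holds proliferating and meiotic germ cells, oocytes and sperm beside somatic sheath cells, and most of its RNA serves germ cell growth and the early embryo. X-linked genes are largely silenced in worm germ cells through much of their development.

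Ratios below are log2 values, read as mutant over wildtype. An array is named by the dye that the mutant carried on it, and the value of the Cy5 array comes before that of the Cy3 array. The direction is only likely, and rests on the number format. The array titles read wildtype vs cde-1 for the Cy5 arrays and cde-1 vs wildtype for the Cy3 arrays, and name no numerator. On the Cy5 arrays, scientific notation was used for all 12418 aged and 11541 young nonzero values, and on the Cy3 arrays for 0 of the 12704 aged and 10775 young values. The notation shows that the orientations were handled differently, and the direction is not settled. If every sign were turned, the members would lie below 0 in aged and above 0 in young adults. If instead the orientations were deposited unturned, the stage means would hold dye effects, and under that reading 3 genes met the limits, 0 of them among the 186. That 0 is fixed by the rule, since turning the Cy3 arrays puts every member outside the limits.

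No named probe represented cde-1. None of the 49 marker genes listed for germline, oocyte, sperm, somatic gonad, intestine, muscle, hypodermis and neurons had a named probe, 0 of 49, so the tissue label could not be checked. A different share of cells and a different RNA level per cell cannot be told apart in these bulk samples. Over all probes, the 2 orientations correlated at a Pearson r of 0.34 in aged adults (10309 probes) and 0.58 in young adults (9159 probes). Arrays of the same orientation correlated between the stages at -0.065 for Cy5 and -0.12 for Cy3, and the aged Cy5 array correlated at -0.31 with the young Cy3 array. Ratios spread most on the aged Cy5 array, with an SD of 1.40 over its probes, against 0.86 to 0.97 on the other arrays.

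Over the 186 members, the aged adult mean of both orientations had a median of 1.17, from 0.37 to 3.09, and the young adult mean had a median of -0.97, from -2.45 to -0.42. At these medians the ratio was 2.25-fold above 1 in aged adults and 1.96-fold below 1 in young adults. The same medians over all 2147 measured coding genes were 0.19 and 0.025. Aged minus young differences had a median of 2.26 among the members and ranged from 0.95 to 5.10. The aged size exceeded the young size in 112 of the 186. No like share was taken over all measured genes, whose median was also higher in aged adults, so nothing is read from this count.

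**Figure D1:**
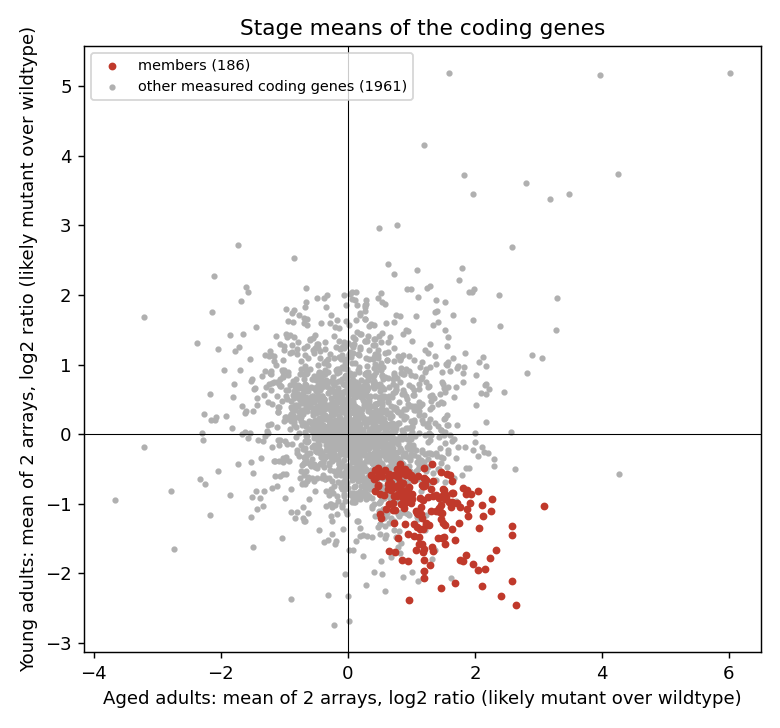
Each point is 1 coding gene, with the mean log2 ratio of the 2 aged adult arrays on the x axis and of the 2 young adult arrays on the y axis. The 186 members, in red, fill the lower right region because the rule selects it, from an aged mean of 0.37 and a young mean of -0.42 outward, and 1961 other measured genes are in grey.

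On the single arrays, member ratios had medians of 1.36 and 0.84 in aged adults, against -0.87 and -1.05 in young adults. The aged Cy5 array gave the largest values, up to 4.05, and it was also shifted for the other measured genes, whose median there was 0.27. On the other aged array that median was -0.081. The orientation gap in aged adults, Cy5 minus Cy3, was positive for 145 members (78.0%) and for 65.7% of all measured genes. In young adults it was positive for 59.1% of the members and 64.6% of all measured genes. The part of this shift in the aged ratios was not tested.

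**Figure D2:**
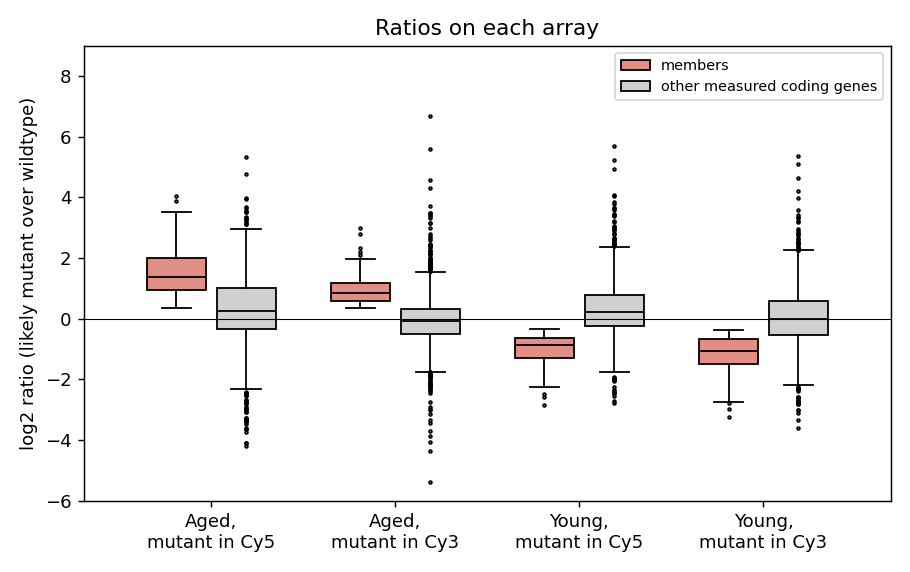
Boxes give the quartiles of the log2 ratio on each array, with whiskers to 1.5 times the box height and dots beyond, for the 186 members in red and the other measured coding genes in grey. Members lie above 0.33 on both aged arrays and below -0.33 on both young arrays by the rule, and their median on the aged Cy5 array, 1.36, stands above the 0.84 of the other aged array.

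As background for the rule, 22.7% of the measured coding genes were above its limit on both aged arrays and 21.7% were below it on both young arrays. Together the limits were met by 8.94%, or 192 genes, including the 6 left out by symbol. These 192 made up 39.4% of the 487 genes high in aged adults and 41.2% of the 466 genes low in young adults. Under the same limits and exclusions, 114 genes showed the reverse, 86 were above the limit on all 4 arrays and 26 were below it on all 4. With each array centred on the median of the measured coding genes, which moved the aged Cy5 array by -0.37, the limits were met by 158 genes (7.36%) and the reverse limits by 6.61%, against 8.66% and 5.31% as deposited. Of the 186, 149 met the limits after that centring.

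A ratio beyond 2-fold on all 4 arrays, above in aged and below in young adults, was found for 25 members, where 1.21% of all measured coding genes met it. Both aged arrays were above 2-fold for 53 members, and for 152 of all 2147 measured genes (7.08%). Both young arrays were below 1 by more than 2-fold for 54 members, and for 109 of all 2147 measured genes (5.08%). The rule used these same arrays, so nothing is read from the shares. Among members, the aged and young means correlated at -0.44 (Pearson, 186 genes), against -0.12 over all measured genes. These points share the same 4 arrays and were cut off by the rule, and the value is a description only. The orientations differed by less than 0.5 in both stages for 57 members and by more than 1 for 52 members in aged and 18 in young adults. The median absolute gap in aged adults was 0.56 among members and 0.65 over all measured genes. In young adults it was 0.35 among members and 0.41 over all measured genes. Nothing particular to the members is read from these counts.

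The aged Cy3 array held the weakest of the 4 ratios for 69 members, more than any other array. Without it, 292 genes met the limits on the remaining 3 arrays. A total of 266 further genes had 4 ratios and failed on 1 array only, 105 of them on that same array. For 25 more genes, 3 arrays met the limits and the fourth held an exact 0, most often the young Cy3 array (16 genes). Just inside the limit of 0.1 (log10) stood C02F5.13, F10D11.2 and nse-4, whose weakest arrays had 0.101, 0.102 and 0.102. Just outside stood F54D5.2 at 0.1, snrp-40.1 at 0.0992 and tsr-2 at 0.0989.

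The members with the strongest weakest array were led by F52B5.2, on chromosome I, with ratios of 2.84 and 1.98 on the aged arrays, against -1.67 and -2.97 on the young arrays. ZK616.5, on chromosome IV, followed with 2.32 and 2.99 on the aged arrays, against -1.65 and -3.25 on the young arrays, and it had the largest stage difference of all members. Its aged mean of 2.65 ± 0.47 (SD of 2 orientations) was a 6.29-fold ratio, and its young mean of -2.45 ± 1.13 lay 5.47-fold below 1. The files and the reference give no more than a sequence name for either gene. For T07F10.3, on chromosome V, the sizes were nearly equal, with 2.10 and 1.54 in aged adults against -1.86 and -1.79 in young adults.

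Y73B6BL.23, on chromosome IV, had 2.83 and 2.34 on the aged arrays and -1.44 and -2.77 on the young arrays. Of the other 6 that complete the first 10 by the weakest array, gcna-1 is described below, and T21C9.13, R05G9.3, Y71H2B.2, F14H3.6 and T24C4.5 had aged means of 1.52 to 2.33 and young means of -1.80 to -1.52. By the stage difference, the first 10 also held F12F6.1, C48B6.9, K04C1.5, edg-1 and C04B4.2. C48B6.9, on chromosome I, had the highest aged mean of any member, 3.09 ± 0.42 (SD of 2 orientations), beside a young mean of -1.03 ± 0.58. In edg-1 the aged orientations disagreed, with 3.89 and 1.29, while the young arrays gave -1.57 and -1.32.

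Among the 186 members, 149 carried only a sequence name and 37 a gene symbol (19.9%, against 24.1% of all measured coding genes). A role could be stated with confidence for 29 of the 37, and the 29 were sorted into 7 role groups after their values were known. The groups cover genome maintenance, small RNAs, RNA processing, translation, protein turnover, protein folding, and membranes and signalling. No test was made of any group. The groups could draw only on named probes, and 14844 of the 22562 probes were unnamed. None of the 49 marker genes had a named probe. The absence of a gene or role from the groups therefore carries no meaning. The 12 symbols beyond the first 25 by the weakest array were also named after their values were seen.

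**Figure D3:**
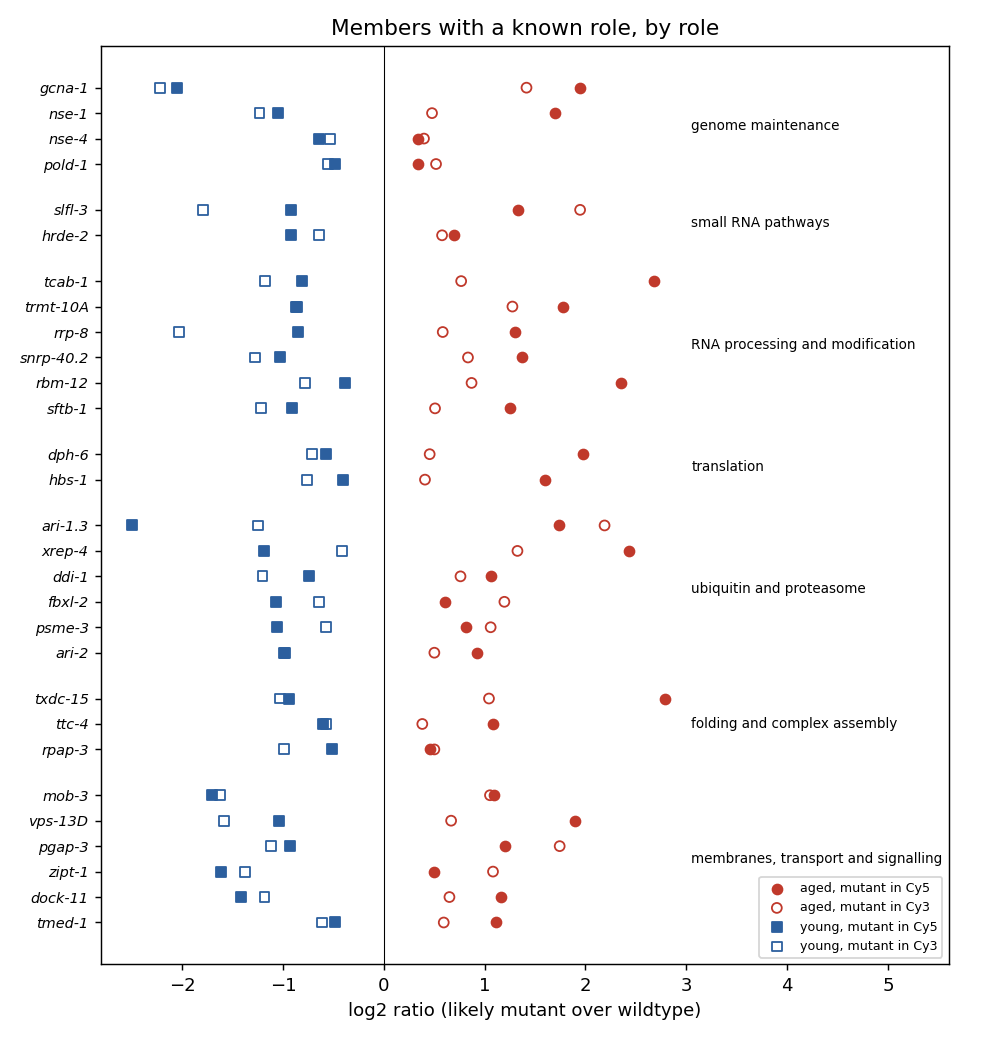
Log2 ratios of the 29 members with a stated role on each of the 4 arrays, sorted by role group and, inside a group, by the aged minus young difference. Red circles are aged and blue squares young adults, filled with the mutant in Cy5 and open with it in Cy3. gcna-1 and ari-1.3 stand farthest apart between the stages, and tcab-1, rbm-12, dph-6 and txdc-15 show the widest gaps between the 2 aged arrays.

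Genome maintenance was represented by 4 members. gcna-1 encodes a germ cell nuclear protein that protects the genome of germ cells. Its ratios were 1.95 and 1.42 on the aged arrays, against -2.05 and -2.22 on the young arrays, with an aged mean of 1.68 ± 0.38, a 3.21-fold ratio, and a young mean of -2.13 ± 0.12 (SD of 2 orientations), 4.39-fold below 1. It was the only one of the 4 beyond 2-fold on all arrays.

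The SMC-5/6 complex helps to resolve and repair DNA in mitosis and meiosis, and nse-1 and nse-4 encode 2 of its non-SMC subunits. nse-1 had 1.70 and 0.48 in aged adults, against -1.05 and -1.23 in young adults. nse-4 was among the smallest members, with 0.34 and 0.40 in aged adults against -0.64 and -0.53 in young adults. These 2 were the only nse genes with a named probe, and both were members. Members made up 8.66% of all measured coding genes, and nothing about the complex is read from 2 genes. pold-1, which encodes the catalytic subunit of DNA polymerase delta, was the member nearest to 0 by stage difference, with 0.34 and 0.52 against -0.49 and -0.55. When each array was centred on the median of its nonzero values, nse-4 and pold-1 no longer met the limits.

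Small RNA pathways, the setting in which cde-1 itself is known, held 2 members. slfl-3 encodes a Schlafen-like protein of the nuclease that trims the front end of piRNA precursors. It had 1.33 and 1.95 on the aged arrays, against -0.92 and -1.79 on the young arrays. Its relative slfl-4, which can take the same place in the nuclease, was no member, with -0.13 and 0.056 in aged adults against -0.43 and -0.59 in young adults. hrde-2 acts in inherited nuclear RNAi in the germline together with the Argonaute HRDE-1. Its ratios of 0.70 and 0.58 in aged adults, against -0.92 and -0.64 in young adults, were smaller, and it no longer met the limits when arrays were centred on the measured coding genes.

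RNA processing and modification formed a group of 6, with aged means of 0.88 to 1.72 and young means of -1.44 to -0.58. sftb-1, the worm SF3B1, belongs to the part of the spliceosome that recognises the branch point. It had 1.26 and 0.51 in aged adults against -0.91 and -1.22 in young adults. Its partner sftb-6 was no member and went the other way by its means, with -0.54 in aged and 0.46 in young adults. rbm-12, an RNA-binding protein, had 2.35 and 0.87 in aged adults against -0.38 and -0.78 in young adults.

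snrp-40.2 encodes a protein of the U5 particle of the spliceosome and is the member with the most probes, 10. Its array means were 1.37 and 0.83 in aged adults, against -1.03 and -1.28 in young adults. On the aged arrays 9 of 10 and 10 of 10 probes were above 0, and on each young array 10 of 10 were below 0. The SD between its probes was 0.66 and 0.24 on the aged arrays and 0.21 and 0.53 on the young arrays. The stage ranges overlapped for none of the probes taken by themselves, since even the probe at -0.043 on the aged Cy5 array stayed above its young values of -1.2 and -0.74. Whether the 10 probes differ in sequence is not known from the sources used here. The rule used the means of these probes, so their signs are a description only. The related snrp-40.1 missed the limit on 1 array, with 1.35 and 1.03 in aged adults against -0.33 and -0.57 in young adults.

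**Figure D4:**
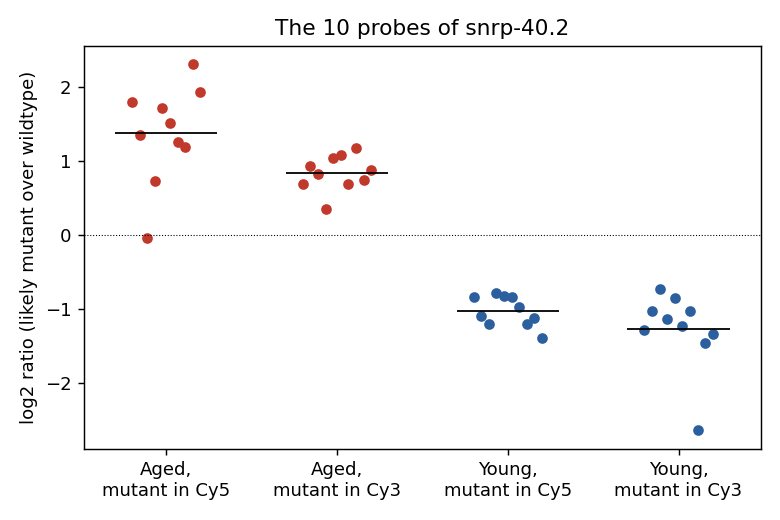
Each point is 1 of the 10 probes of snrp-40.2 on 1 array, as a log2 ratio on the y axis, with the mean as a bar. The aged means are 1.37 and 0.83 and the young means -1.03 and -1.28, and 1 probe on the aged Cy5 array lies at -0.043.

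The remaining RNA genes act on stable RNAs. tcab-1, the worm relative of a human Cajal body protein, had 2.68 and 0.77 in aged adults against -0.81 and -1.18 in young adults, so that the aged orientations differed widely. trmt-10A, a tRNA methyltransferase, was steadier, with 1.77 and 1.28 against -0.87 and -0.86. rrp-8, which methylates ribosomal RNA, had 1.31 and 0.58 in aged adults, against -0.85 and -2.03 in young adults.

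Translation was represented by dph-6 and hbs-1. dph-6 completes diphthamide, a modified residue of an elongation factor, and had 1.98 and 0.46 in aged adults against -0.57 and -0.71 in young adults. Of the other diphthamide genes measured, dph-7 had means of 0.62 in aged and -0.82 in young adults, and dph-5 had 0.15 and 0.091. The orientations of dph-5 had opposite signs in each stage. hbs-1 acts in the rescue of stalled ribosomes. It had 1.59 and 0.41 in aged adults against -0.41 and -0.76 in young adults.

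Ubiquitin and the proteasome formed a group of 6, with aged means of 0.71 to 1.96 and young means of -1.87 to -0.80. ari-1.3 and ari-2 encode ariadne-type ubiquitin ligases, and they were the only ari genes with a named probe. Nothing is read from both being members, where 8.66% of all measured coding genes were. ari-1.3 had 1.74 and 2.19 on the aged arrays, against -2.49 and -1.25 on the young arrays, a 3.90-fold ratio at the aged mean. ari-2 had 0.93 and 0.50 in aged adults against -0.99 and -0.98 in young adults.

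F-box proteins choose the substrates of cullin ubiquitin ligases. xrep-4, an F-box gene that acts in the SKN-1 stress response, had 2.43 and 1.33 in aged adults against -1.19 and -0.42 in young adults, while fbxl-2 had 0.61 and 1.2 against -1.07 and -0.64. psme-3 encodes a proteasome activator and had 0.81 and 1.06 in aged adults against -1.06 and -0.57 in young adults. ddi-1 encodes the protease that cuts SKN-1A when the proteasome is impaired, and it had 1.06 and 0.76 against -0.74 and -1.2.

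Folding and complex assembly held 3 members. txdc-15, named for its thioredoxin domain, had 2.79 and 1.04 on the aged arrays, against -0.94 and -1.03 on the young arrays, which gave an aged SD of 1.23 and a young SD of 0.068 between orientations. ttc-4, a co-chaperone with tetratricopeptide repeats, had 1.08 and 0.38 against -0.60 and -0.57. rpap-3, named for an RNA polymerase II assembly factor, had 0.46 and 0.50 in aged adults against -0.51 and -0.99 in young adults, and after centring on the array medians it no longer met the limits.

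Membranes, transport and signalling held 6 members, with aged means of 0.79 to 1.47 and young means of -1.66 to -0.55. pgap-3 is named for a remodelling enzyme of GPI-anchored proteins and had 1.2 and 1.74 in aged adults against -0.93 and -1.12 in young adults. The gene pgap-1, of the same name stem, failed on 1 array, with 1.52 and 0.048 against -1.96 and -1.29. tmed-1, a cargo receptor of the p24 family, had 1.11 and 0.59 in aged adults against -0.49 and -0.61 in young adults. vps-13D encodes a lipid transfer protein that bears on mitochondria, with 1.89 and 0.67 against -1.04 and -1.59.

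zipt-1 encodes a zinc transporter of the ZIP family. It had 0.49 and 1.08 in aged adults against -1.62 and -1.38 in young adults. Of the 4 other zipt genes measured, zipt-11 and zipt-2.3 had means above 0 in aged and below 0 in young adults, with 0.17 against -0.61 and 0.82 against -0.023. zipt-2.2 had the opposite signs, -0.70 in aged and 1.24 in young adults, and zipt-3 was below 0 in both, at -0.040 and -0.19. dock-11 encodes an activator of small GTPases and had 1.16 and 0.65 against -1.41 and -1.18. mob-3, of the family that activates NDR and LATS kinases, gave the closest agreement of these 6, with 1.09 and 1.05 in aged adults against -1.71 and -1.62 in young adults.

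The other 8 members with a symbol, edg-1, herd-1, hrg-14, mcat-1, ppcd-1, spot-1, srdf-2.1 and vep-1, are given without a role. Their aged means ran from 0.67 (mcat-1) to 2.59 (edg-1) and their young means from -2.22 (srdf-2.1) to -0.69 (ppcd-1). herd-1 had 1.75 and 1.28 in aged adults against -0.68 and -0.93 in young adults.

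Name stems gave a view of genes with like names that the limits did not choose. A shared stem is a match of names, and whether such genes are related was not examined. The 37 symbols fell under 35 stems, and 16 of these stems held other measured genes, 30 in all. By their stage means, 16 of the 30 (53.3%) were above 0 in aged and below 0 in young adults and 9 were the reverse. Over all measured coding genes, which include the members, 34.7% showed the first pattern and 25.2% the second. The widest of the 30 in the members' direction was vps-72, with 0.27 and 2.09 in aged adults against -2.37 and -1.77 in young adults, which failed on 1 array. No test was made of these shares, and the stems were taken from genes already known to be members.

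Position in the genome was not used by the rule. The X chromosome held 10 of the 186 members (5.38%), against 231 of the 2147 measured coding genes (10.8%) and 11 of the 114 genes of the reverse pattern (9.65%). Of the measured X-linked genes, 4.33% were members, and on the autosomes this share ran from 6.01% on chromosome II to 11% on chromosome III. Chromosome III held 42 members, chromosome IV 40, chromosome I 39, chromosome V 32 and chromosome II 23. These shares are descriptions without a test.

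**Figure D5:**
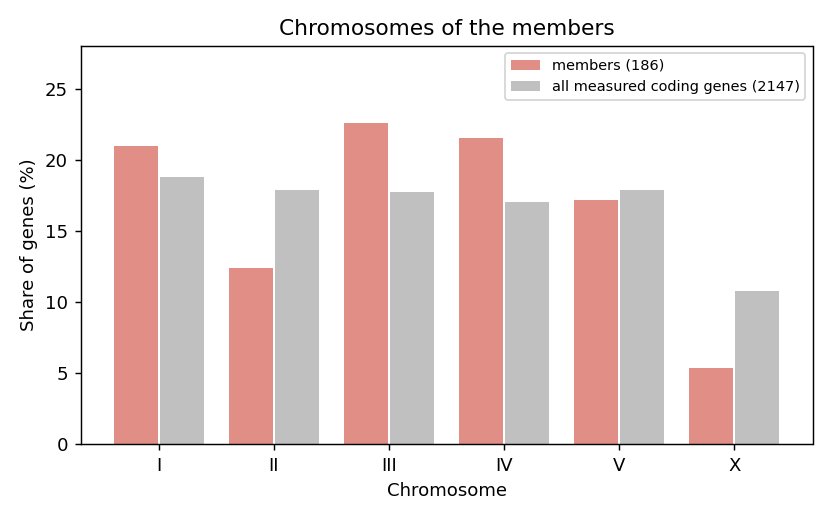
Bars give the share of genes, in percent, on each chromosome for the 186 members in red and all 2147 measured coding genes in grey. The X chromosome holds 5.38% of the members and 10.8% of the measured genes, and chromosome III holds 22.6% and 17.7%.

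The X-linked members were C04B4.2, K04C1.5, C25A11.2, srdf-2.1, W05H9.4, T08D2.6, R07E4.5, T04G9.7, ZK154.5 and Y34B4A.2, all named after their values were seen. K04C1.5 had 3.14 and 1.16 on the aged arrays, against -1.52 and -2.36 on the young arrays. C04B4.2 had 2.72 and 1.38 in aged adults against -1.28 and -2.61 in young adults. Detection itself was lowest on this chromosome, where 21.6% of the coding genes with a named probe had all 4 ratios, against 24.5% to 42.0% on the autosomes.

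Worm genes are often transcribed together with their neighbours as operons. In the order of coding genes of the WBcel235 annotation, 347 pairs of neighbours were both measured, and in 4 of them (1.15%) both genes were members. The pairs were ZK973.11 with ZK973.1 and B0205.1 with B0205.9 on chromosome I, and C27F2.7 with C27F2.10 and psme-3 with Y66D12A.8 on chromosome III. Of the 63 members with a measured neighbour, 8 (12.7%) had another member beside them. Members made up 8.66% of all measured coding genes, and 60 of the 347 pairs held a single member. The 12.7% and the 8.66% are unlike measures, since a gene can have a measured neighbour on each side. Whether members lie beside each other more often than other genes was not tested. None of the 4 pairs overlapped in that annotation, and strand was not used here.

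Neighbours had similar signs by the rule and differed in size. ZK973.11 had means of 1.22 in aged and -0.66 in young adults, beside 2.05 and -0.82 for ZK973.1. Y66D12A.8 had 1.33 and -0.42, beside 0.94 and -0.82 for psme-3. C27F2.7 had 1.05 and -1.3, beside 0.47 and -0.60 for C27F2.10. B0205.1 had 1.19 and -0.63, beside 1.47 and -1.22 for B0205.9.

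Annotated loci of the members had a median length of 1893 bases, against 1863 bases for the other measured coding genes. More than 1 RefSeq protein was annotated for 44 members (23.7%) and for 19.9% of the other measured coding genes. Apart from snrp-40.2, F40C5.2 and ZK686.3 were the members with more than 1 probe, and for both a single probe on 1 aged array lay below 0, at -0.014 for F40C5.2 and at -0.038 for ZK686.3, while their other probes with a ratio had the sign of the gene.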

How the data were processed

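The deposited series table had 22562 probes and 4 arrays. The deposited values were read as log10 of the channel ratio, as Agilent Feature Extraction writes it; the submitters' processing notes name that program without a version. How the authors corrected background and dye bias stands in none of the sources used here, and the log base could not be tested. Values of exactly 0 (43.7% to 52.2% of a column) were treated as missing. Spot brightness was not used, and the number of arrays limits the precision.

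Of 7718 named probes, 7691 matched the WBcel235 annotation through gene identifiers; 0 had several symbols and 14844 probes were unnamed here. The 7152 probes of coding genes were averaged per gene and multiplied by 3.32 for log2. Genes were named by the weakest array (10), by the stage difference (10), by symbol (the first 25, by the weakest array), by the limit (3 on each side) and as neighbours. Members and lists were chosen with earlier results of these data known. Role classes from product texts, promoter motifs, protein features and alignments had been planned and were not used here; roles come from general knowledge of the symbols. The code of the rule was checked on simulated data. Planted values lay well beyond the limit and all others inside it, so the check says nothing about noise in the real arrays. Python 3.11.15, pandas 2.3.3 and numpy 2.4.6 were used. Alternatives were other limits, centring, quantile normalization, zeros kept, other probe summaries, single arrays left out and turned arrays.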

Additional observations from a re-analysis of the deposited data

Results flagged for a closer look

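Every member had both aged arrays above 0 and both young arrays below 0, because the rule requires it, so the opposite signs of the stages are no finding. The aged minus young difference was not tested, because a stage offers 1 RNA sample of each genotype. Its median over the 186 members was 2.26 on the log2 scale. The 10 largest differences were 5.10 for ZK616.5, 4.73 for F52B5.2, 4.69 for Y73B6BL.23, 4.28 for F12F6.1 and 4.13 for C48B6.9, followed by 4.09 for K04C1.5, 4.03 for edg-1, 4.02 for T21C9.13, 3.99 for C04B4.2 and 3.99 for T24C4.5. For edg-1 and K04C1.5 the aged orientations differed with an SD of 1.84 and 1.40. Both had their larger aged value on the Cy5 array, whose ratios spread most.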

How the results depend on the processing

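The number of members, 186, was 72 with a limit of 0.2 and 273 with a limit of 0.05. Centring each array on the median of its nonzero values gave 178, of which 172 were among the 186. Centring on the measured coding genes, chosen after seeing the data, gave 158, and 7 of the 29 members with a stated role no longer met the limits. These 7 were fbxl-2, hrde-2, zipt-1, rpap-3, xrep-4, pold-1 and nse-4. Quantile normalization gave 160 (140 shared), zeros kept 185 and every probe required to pass 183, and leaving out 1 array gave 239 to 292. Stage means alone gave 383, by construction a looser rule. With the Cy3 arrays turned, 3 genes met the limits, 0 of them shared, which the rule fixes in advance. Centring moved the aged and young medians over members by less than their spread, to 1.08 in aged adults, and they were 0.84 to 1.36 in aged and -1.05 to -0.87 in young adults with 1 array left out. Were the deposited scale log2, they would be 0.35 and -0.29. Of 306 single values under alternatives, 297 moved by less than their spread, 9 by more and 0 reversed. These cover the named members under centring and with 1 array left out, and the chromosome shares at a limit of 0.2. All 9 were named members under centring. With 1 array left out, a stage mean becomes the ratio of the other array of that stage. That move is always smaller than the SD of the orientations, and the rule fixes the sign. Such values could neither move by more than their spread nor reverse, so the 297 and the 0 are partly fixed in advance. No paired analysis was possible because no replicate number in the labels joins arrays of different stages. The X chromosome held 5.38% of the members, 10.8% of the measured coding genes and 15.4% of all coding genes with a named probe.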
